A study of Mus musculus with 3 samples.

Results

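The chemokines Ccl5 and Cxcl10 and the atypical chemokine receptor Ackr3 were followed across 3 sublines of B16, a mouse melanoma line of C57BL/6J origin. They are 3 of the 14293 genes with a symbol in an RNA sequencing table, and were picked by symbol with their values already known, so their levels are given as a description and no test is made on them. The sublines F0, F1 and F10 had 1 library each. The labels give no treatment, and all were cultures in high-glucose DMEM with 8% FBS, used within 10 passages of thawing and harvested as subconfluent monolayers. F10 is widely used as a line selected for colonising the lung. Nothing below has a replicate check. A difference may come from the subline, from the culture dish or from the library, and in a bulk culture fewer expressing cells and less RNA per cell cannot be told apart.

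Chemokines are small secreted proteins that steer leukocytes through G protein-coupled receptors. Ccl5, also called RANTES, attracts T cells, monocytes and eosinophils through receptors of the CC family, and Cxcl10, also called IP-10, attracts activated T cells and NK cells through Cxcr3. Both genes are classic targets of IRF and NF-kB transcription factors, and tumour cells can secrete both. Ackr3, formerly Cxcr7, binds Cxcl12 and Cxcl11, recruits beta-arrestin and removes its ligands from the medium without classic G protein signalling.

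The promoters are shown because both chemokines had the same direction across the sublines, and because IRF and NF-kB sites are how the Cxcl10 promoter is known to be controlled. Of the 3 genes, 2 had an entry in the RefSeq promoter table used (GRCm38.p6), and for Ccl5 none is printed. Each sequence holds the 250 bases before the annotated start, 5′ to 3′ on the gene's strand. Capitals mark matches, on either strand, to any of 7 motifs. These were NF-kB (GGGA, any 4 bases, CC), the interferon-stimulated response element or ISRE (GAAA, any 2 bases, GAAA), GAS (TTCNNNGAA), AP-1 (TGANTCA), the TATA box (TATAAA), the melanocyte M-box (TCATGTG) and the hypoxia response core (ACGTG).
Cxcl10 promoter, chr5:92348890-92349139, minus strand: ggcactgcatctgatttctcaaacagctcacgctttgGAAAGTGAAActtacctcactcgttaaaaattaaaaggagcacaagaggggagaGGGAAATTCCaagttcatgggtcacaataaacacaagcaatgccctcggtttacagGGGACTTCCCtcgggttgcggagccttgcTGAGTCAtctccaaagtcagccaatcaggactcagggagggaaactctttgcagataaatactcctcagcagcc
Ackr3 promoter, chr1:90203730-90203979, plus strand: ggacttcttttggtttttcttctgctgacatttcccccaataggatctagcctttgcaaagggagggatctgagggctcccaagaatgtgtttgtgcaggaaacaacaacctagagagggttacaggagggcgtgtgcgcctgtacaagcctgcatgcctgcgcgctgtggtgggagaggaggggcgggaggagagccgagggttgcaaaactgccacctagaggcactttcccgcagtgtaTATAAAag

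The Cxcl10 window held an ISRE match at bases 213 to 204 before the start (GAAAGTGAAA). It held an NF-kB match at bases 159 to 150 (GGGAAATTCC) and another at bases 103 to 94 (GGGACTTCCC), which reads as a match on both strands. An AP-1 match lay at bases 74 to 68. The Ackr3 window held a TATA box match at bases 8 to 3 and no match to the other 6 motifs. Of 32851 windows of the same length, 2.98% held an ISRE match, 17.6% an NF-kB match, 6.75% an AP-1 match and 12.4% a TATA box match. An ISRE and an NF-kB match together were found in 127 windows, or 0.387%. A match is a run of letters and not evidence that a factor binds there.

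Ccl5 (chromosome 11, 83525778 to 83530518, minus strand, 3 exons) had levels of 62.9, 7.55 and 1.77 RPKM in F0, F1 and F10. RPKM, the unit of the authors' table, counts reads relative to transcript length and library size. F0 was high, F1 intermediate and F10 low. Sets of 3 levels below are in the same order of sublines. The values correspond to about 168, 23 and 5 sequenced fragments, estimated from the steps of low values in the table. Ccl5 stood above 92.7% of all genes in F0, but above 55.6% in F1 and 32.2% in F10. Levels in F0 were 8.33-fold those in F1 (95% counting interval 5.47 to 13.8) and 35.4-fold those in F10 (14 to 104). Between F1 and F10 the ratio was 4.25 (1.46 to 13.2), the least precise of the 3 because it sets 23 fragments against 5. These Clopper-Pearson intervals come from estimated fragments and cover counting error only.

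Cxcl10 (chromosome 5, 92346638 to 92348889, minus strand, 4 exons) had levels of 24.6, 11.2 and 5.31 RPKM, or about 141, 75 and 30 fragments. The order of the libraries was that of Ccl5, with smaller and more even steps. F0 was 2.19-fold above F1 (1.64 to 2.93), F1 was 2.11-fold above F10 (1.38 to 3.37), and F0 was 4.63-fold above F10 (3.12 to 7.16). Each interval leaves out 1.

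The order of the 2 chemokines differed between F0 and F10. In F0 Ccl5 was 2.56-fold above Cxcl10 in RPKM (2.03 to 3.22). In F1 Cxcl10 was 1.49-fold above Ccl5, with an interval that includes 1 (0.943 to 2.55). In F10 Cxcl10 was 2.99-fold above Ccl5 (1.08 to 9.25).

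Ackr3 (chromosome 1, 90203980 to 90215724, plus strand, 2 exons) had levels of 1.37, 0.157 and 0.278 RPKM. This corresponds to about 15, 2 and 3 fragments. The receptor was therefore near the limit of these libraries, and F0 stood above both others. It reached 1 RPKM in F0 alone and was compared for that reason, so its direction against F0 was fixed beforehand. On these few fragments F0 was 8.72-fold above F1 (2.03 to 78.5) and 4.95-fold above F10 (1.4 to 26.7). The F1 value lies under the floor of 3 fragments and the F10 value at it. This floor is 0.238 and 0.279 RPKM for this transcript, so no fold between them is given. Whether F1 and F10 differ was not detectable at this depth.

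**Figure D1:**
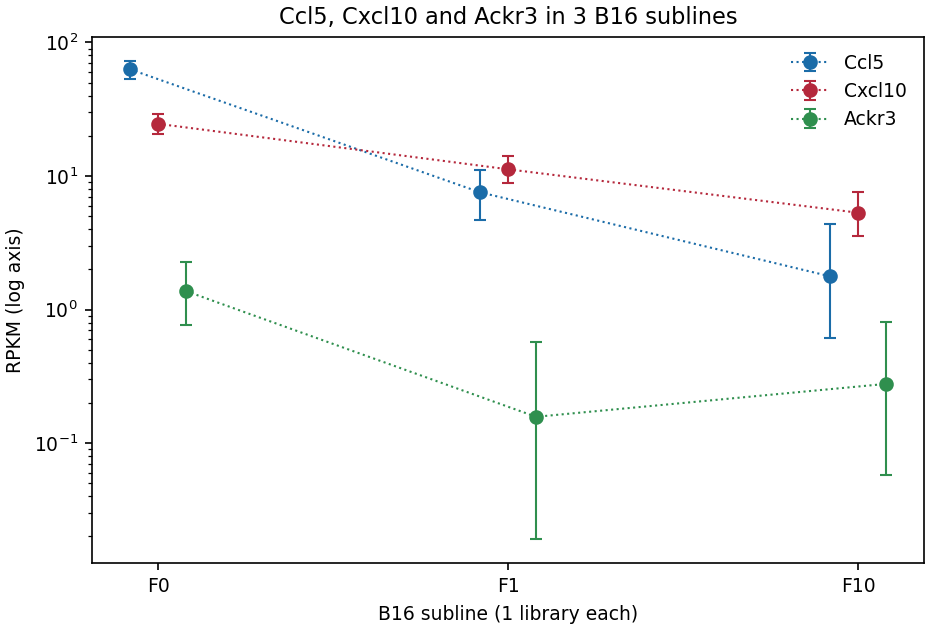
RPKM (log axis) of Ccl5, Cxcl10 and Ackr3 in the 1 library of each subline. Bars are 95% Poisson intervals from estimated fragments and cover counting error only, and dotted lines only join the points of a gene. Ccl5 runs from 62.9 to 1.77 RPKM and crosses below Cxcl10, while Ackr3 reaches 1.37 in F0 and stays under 0.3 in F1 and F10.

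Differences were then taken on the log2(RPKM + 1) scale for the 10701 genes with at least 1 RPKM in at least 1 library, where a fold understates that of low genes. At least 2-fold lower in F10 than in F0 were 1.61% of compared genes, and at least 2-fold higher 1.54%. Ccl5 lay at -4.52, the lowest value of all, and Cxcl10 at -2.02, the 25th from the lowest. Ackr3 lay at -0.89, short of 2-fold, at rank 224.

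For F1 against F0, 1.02% of compared genes were at least 2-fold lower and 0.972% higher. Ccl5 was again the lowest at -2.90. Cxcl10 lay at -1.07 (rank 84) and Ackr3 at -1.04 (rank 93), both just past 2-fold. For F10 against F1, 1.92% were at least 2-fold lower and 2.07% higher. Ccl5 lay at -1.62 (rank 44), and Cxcl10 at -0.95, just short of 2-fold. The comparisons share libraries, so these values are not independent of each other. The genes were chosen with the same contrasts in view, and nothing is read from their count against the background.

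**Figure D2:**
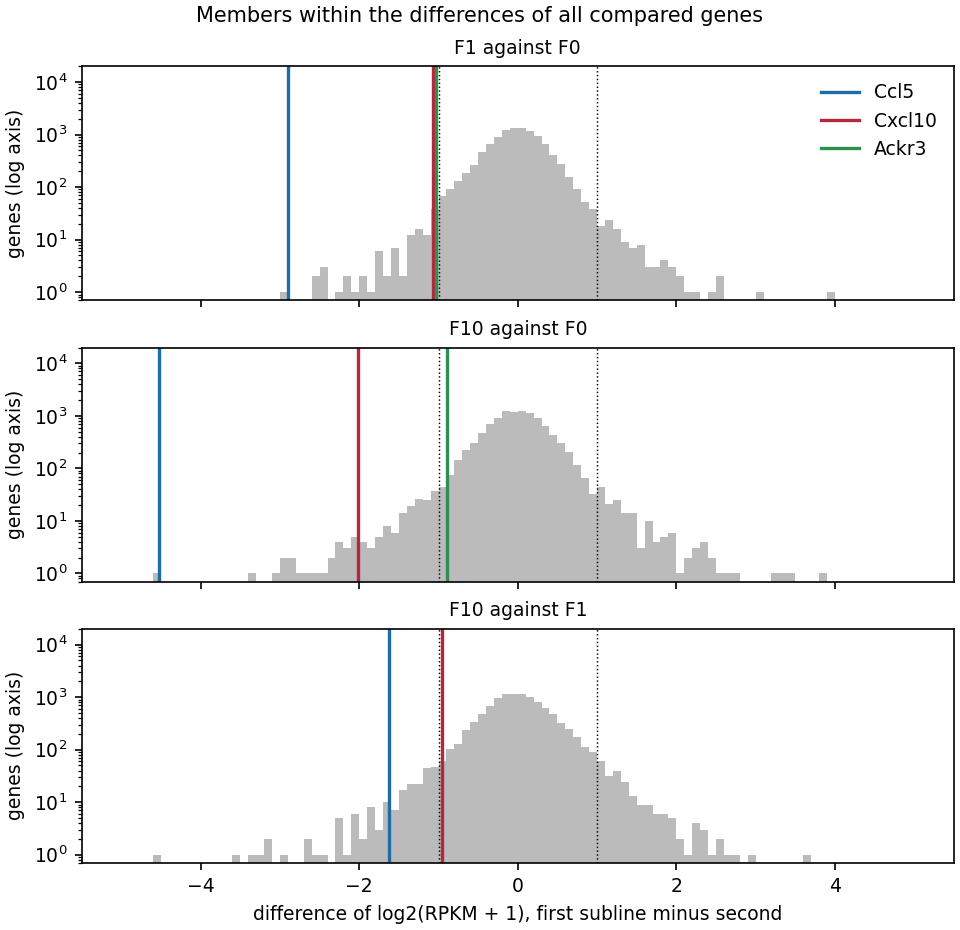
Differences of log2(RPKM + 1) for all 10701 compared genes in each pair of sublines (grey, number of genes on a log axis), with vertical lines at Ccl5, Cxcl10 and Ackr3. Dotted lines mark 2-fold. Ccl5 is at the lower end in both comparisons with F0, and Ackr3 is not drawn for F10 against F1, where both its values are at or under 3 fragments' worth.

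The other chemokines of a fixed list were mostly at or near 0. Of 39 listed ligands 17 had values and 4 passed the filter, and the 22 without values were not analysed here. Besides Ccl5 and Cxcl10 the compared ligands were Ccl25 and Ccl27a, which are known as the thymic and gut ligand of Ccr9 and the skin ligand of Ccr10. Ccl25 read 5.04, 4.2 and 3.01 RPKM. The F0 level was 1.67-fold that of F10, with an interval that includes 1 (0.808 to 3.62). Ccl27a read 3.06, 1.84 and 1.4 RPKM, on about 8, 5 and 4 fragments. Its F0 to F10 ratio of 2.18 has an interval that also includes 1 (0.531 to 8.99), and it has near-identical copies on chromosome 4 that can share its reads. Both read highest in F0 and lowest in F10, within counting error.

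The summed level of the 17 ligands was 96.3, 25.9 and 12.8 RPKM in F0, F1 and F10. Ccl5 and Cxcl10 together made up 90.8%, 72.4% and 55.2% of it. Ccl5 alone went from 65.3% in F0 to 29.1% in F1 and 13.8% in F10. The other 15 ligands summed to 8.83, 7.16 and 5.75 RPKM. Ccl5 and Cxcl10 were chosen with their values known, so their part in the spread of the sum is a description only.

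No other ligand reached 1 RPKM. Ccl28, a mucosal chemokine, read 0.0997, 0.515 and 0.202 RPKM, on about 2, 12 and 4 fragments, and so was highest in F1. Cxcl9, which like Cxcl10 is a ligand of Cxcr3, read 0.0552 RPKM in F1, about 1 fragment, and was listed at 0 in F0 and F10. Cxcl11, another Cxcr3 ligand that also binds Ackr3 and is annotated as a transcribed pseudogene in this C57BL/6J assembly, read 0.234 RPKM in F0 on about 2 fragments and was listed at 0 in the others. A listed 0 may be an estimate that failed, and 3 fragments would be 0.195 RPKM for Cxcl9 in F10.

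Of 24 listed receptors 7 had values, and Ackr3 was the only one compared. Cxcr3, the receptor of Cxcl10, read 0.696, 0.399 and 0.703 RPKM, on about 6, 4 and 6 fragments. It did not share the order of its ligand, and the F1 to F0 ratio of 0.573 has an interval that includes 1 (0.119 to 2.42). Ccr10, the receptor of Ccl27a and Ccl28, read 0.432, 0.744 and 0.874 RPKM on about 4, 8 and 8 fragments. Cxcr4, which shares the ligand Cxcl12 with Ackr3, read 0.0884 RPKM in F1 and was listed at 0 elsewhere. Cxcl12 itself was listed at 0 in F0 and read 0.0505 in F1 and 0.16 in F10, at most about 3 fragments. The atypical receptors Ackr4 and Ccrl2 stayed under 0.2 RPKM in each library.

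**Figure D3:**
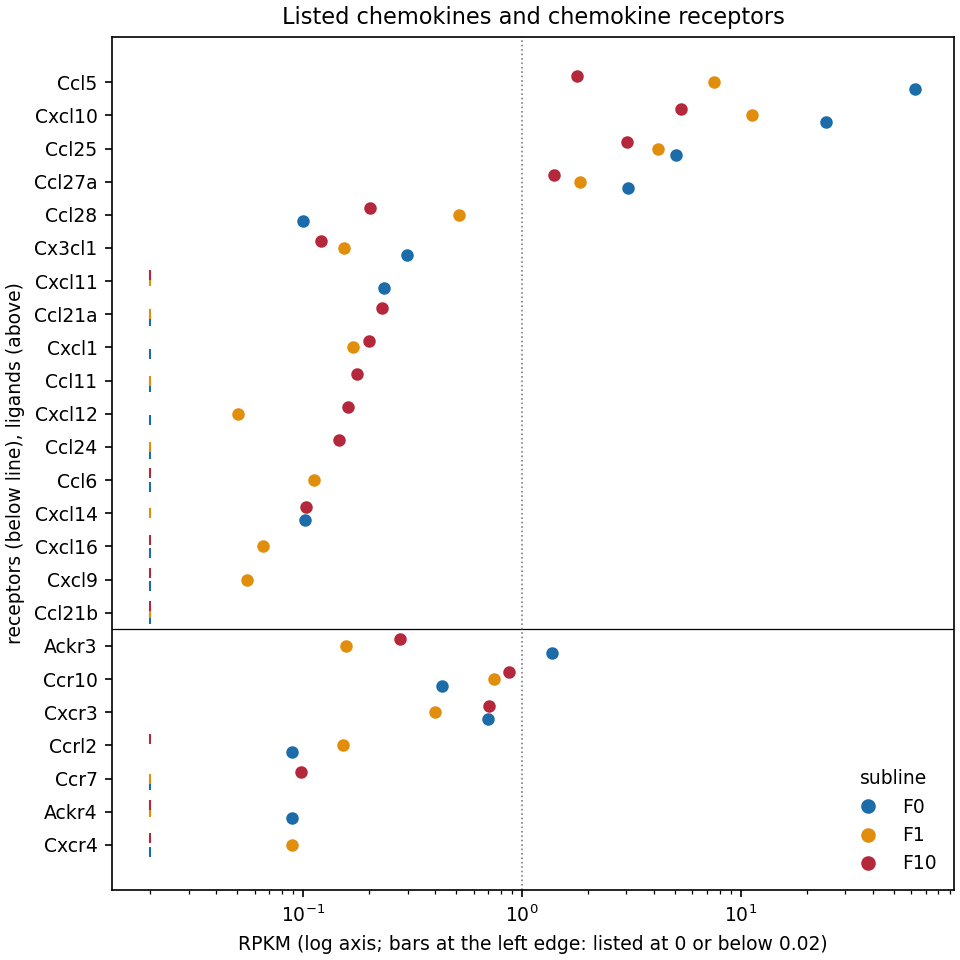
RPKM (log axis) of the 17 chemokine ligands and 7 receptors with values, in F0, F1 and F10. Bars at the left edge mark values listed at 0 or below 0.02, and the dotted line marks 1 RPKM. Ccl5, Cxcl10, Ccl25 and Ccl27a are the ligands past 1 RPKM and Ackr3, in F0 alone, the receptor.

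In the lists of related genes below, 2-fold apart means a difference of 1 on the log2(RPKM + 1) scale, and a ratio with an interval is one of plain RPKM, which is larger for low genes. Ackr3 signals through beta-arrestins. Arrb1 read 3.76, 3.97 and 3.29 RPKM and Arrb2 10.6, 10.3 and 9.39. None of the 8 compared genes of the receptor coupling list, which also holds GRK kinases, G alpha i subunits and Rgs proteins, was 2-fold apart in a pair on the log2(RPKM + 1) scale, and the median for F10 against F0 was -0.08. Over all compared genes the shares lower or higher ran from 0.972% to 2.07% across the pairs, so none in 8 is near those shares. Rgs16, a brake on G protein signals, came closest to 2-fold, at 0.958, 2.68 and 2.58 RPKM. In plain RPKM it was 2.79-fold (1.43 to 5.87) and 2.7-fold (1.35 to 5.74) above F0 in F1 and F10. The G alpha subunit Gnai2 read 132, 119 and 112 RPKM, and the receptor kinase Grk5 3.95, 3.54 and 3.21. Of other peptides reported to bind Ackr3, macrophage migration inhibitory factor Mif read 340, 295 and 509 RPKM. Adrenomedullin, Adm, read 3.38, 9.29 and 3 RPKM, so that F1 was 2.75-fold above F0 in plain RPKM (1.72 to 4.45). Its receptor Calcrl read 1.34, 1.66 and 0.915, and the partner of that receptor, Ramp2, 5.35, 6.25 and 5.84.

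Genes of sensing and signalling pathways linked to Ccl5 and Cxcl10 were taken by list. Whether their levels act on those of Ccl5 and Cxcl10, or share a control with them, was not tested. Of 9 compared nucleic acid sensors and adaptors 5 were at least 2-fold lower in F10 than in F0 and none higher, where 1.61% of all compared genes were lower. Another 2 of the 9 lay below F0 by less (Mavs and Tlr3), 2 lay above it (Ticam1 at 0.29 and Tmem173 at 0.04), and the median was -1.06. Dhx58, a regulator of RNA sensing, read 5.57, 4.19 and 0.703 RPKM. The RNA sensor Ddx58 (RIG-I) read 10.8, 7.49 and 2.78 RPKM. Its ubiquitin ligase Trim25 read 14.3, 7.93 and 3.32, and the RNA sensor Ifih1 (MDA5) 4.66, 2.73 and 1.47. The DNA sensor cGAS, Mb21d1, read 5.79, 3.68 and 2.25. For F1 against F0 none of the 9 was 2-fold apart, with a median of -0.47. Over all compared genes 1.02% were lower and 0.972% higher there.

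Of the 8 compared interferon regulatory and STAT factors 2 were at least 2-fold lower in F10 than in F0 and none higher. Over all compared genes 1.61% were lower. The median of the 8 was -0.42. Irf9, a DNA-binding factor of the type I interferon response, read 9.88 RPKM in both F0 and F1 and 2.88 in F10. Irf7 read 2.13, 1.73 and 0.213 RPKM, on about 21, 20 and 2 fragments. Stat2, a signal transducer of type I interferon, read 5.77, 4.74 and 2.62. Irf3, which is activated by phosphorylation rather than by its level, read 8.53, 8.37 and 10.3. F1 to F0 ratios were 1 for Irf9 (0.78 to 1.27) and 0.81 for Irf7 (0.422 to 1.59), where that of Ccl5 was 0.12 (0.0727 to 0.183). Whether these factors bear on the level of Ccl5 was not tested, and their activity was not measured.

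Of 13 compared NF-kB subunits, inhibitors and kinases none was 2-fold apart in any pair on the log2(RPKM + 1) scale. Over all compared genes the shares at least 2-fold lower or higher ran from 0.972% to 2.07% across the pairs. A count of none in so short a list is near those shares. The medians of the 13 were 0.10 for F1 and 0.06 for F10 against F0. Among the subunits, Nfkb1 read 9.96, 12.4 and 17.4 RPKM, Nfkb2 5.6, 5.9 and 7.87, and Rela 13.9, 18.5 and 14.1. Relb read 1.61, 4.09 and 2.32, and in plain RPKM F1 was 2.53-fold above F0 (1.48 to 4.52). The kinase Tbk1, which phosphorylates Irf3, read 16.9, 17.3 and 13. None of the 7 compared interferon receptors and kinases was 2-fold apart on the log2 scale either, with medians of -0.02 and 0.21. The kinase Jak1 read 16.8, 19.1 and 24.3 RPKM and its relative Tyk2 5.81, 5.59 and 7.55. Ifngr1, of the interferon gamma receptor, read 4.98, 5.27 and 7.45. Ifnar2, a subunit of the type I receptor, read 15.6, 13.5 and 12.6. Ifnar1, its other subunit, read 11.6, 11.5 and 10.3 RPKM. Activity of NF-kB or STAT proteins was not measured.

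Some interferon-stimulated effector genes are controlled through an ISRE, the type of site matched in the Cxcl10 window. Of 31 listed, 23 were compared. Of these 19 were at least 2-fold lower in F10 than in F0 and the other 4 (Dtx3l, Herc6, Gbp2 and Ifit2) lower by less, with a median of -1.35, where 1.61% of all compared genes were at least 2-fold lower. Oasl2 (1.37, 0.665 and 0.12 RPKM) was compared through F0 alone, which fixed its direction, and without it the count was 18 of 22. The ubiquitin-like Isg15 read 35.5, 18.5 and 2.49 RPKM, and F0 was 14.2-fold above F10 (7.22 to 29.2). Ifit1, which binds foreign RNA, read 19.2, 5.41 and 1.64, and its relative Ifit3 20.8, 8.39 and 3.29. Rtp4 read 6.16, 2.96 and 0.479. Past 2-fold as well were Usp18, Oas1a, Ifi27, Igtp, Bst2, Rsad2, Xaf1, Ifitm3, Gbp3, Cmpk2, Mx2, Ifi35, Parp9 and Parp14. For F1 against F0, 3 of 23 were at least 2-fold lower (1.02% of all compared genes), namely Ifit1, Ifit3 and Cmpk2. Cmpk2, a mitochondrial nucleotide kinase, read 3.86, 0.905 and 1.12 RPKM and so was already at its low level in F1. Ifit2, an RNA-binding relative of Ifit1, read 16.8, 17 and 14.7 and stayed close to F0 throughout. NF-kB target cytokines and adhesion genes had 3 compared members of 15, and these differed in direction. Il18 read 4.95, 2.22 and 1.74 RPKM, and Csf1 3.27, 3.56 and 2.93. Birc3, an inhibitor of cell death, read 0.398, 1.66 and 1.14, and in plain RPKM F1 was 4.18-fold above F0 (1.28 to 15.7). Lists of this kind were drawn up with earlier results of these data known and carry no test.

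**Figure D4:**
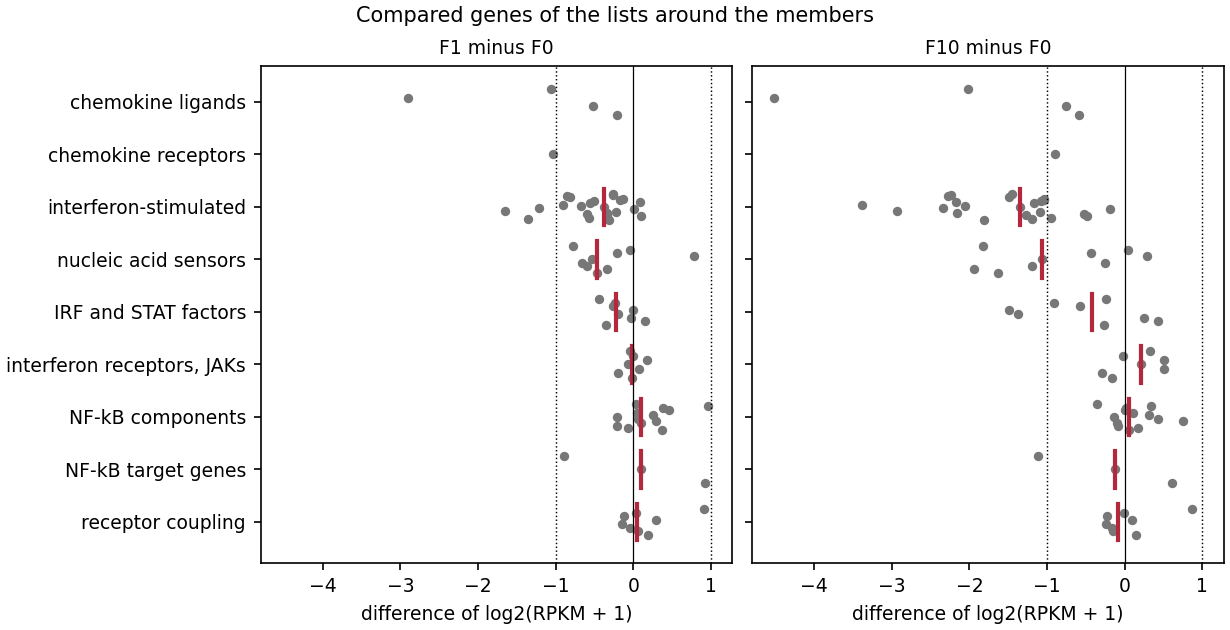
Differences of log2(RPKM + 1) for F1 minus F0 and F10 minus F0, 1 point per compared gene of each list, with the list median as a red bar (not drawn for the chemokine lists, which hold the chosen genes) and dotted lines at 2-fold. For F10 minus F0 the medians are -1.35 for interferon-stimulated genes, -1.06 for nucleic acid sensors and 0.06 for NF-kB components.

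As a description, the promoter letters were set beside the differences of the 8718 compared genes with a window. Of the 255 genes with an ISRE match 10.6% were at least 2-fold lower in F10 than in F0, where the share over all genes with a window was 1.43%. The shares at least 2-fold higher were 0.392% and 1.42%. Of the 2272 genes with an NF-kB match 1.5% were lower. Both matches were held by 58 compared genes, of which 7 were at least 2-fold lower in F10 and none higher. Cxcl10 is counted among these 7 and among the lower genes with an ISRE match. It was the lowest of the 58, but it was chosen with its value known, so its place carries no weight. The next lowest were the galectin Lgals9 (84.9 RPKM in F0 and 26.5 in F10) and the antiviral enzyme Rsad2 (15.8 and 4.98). Of the 17 compared interferon-stimulated effector genes with a window, 9 held an ISRE match. These 9 are part of the 255, so the share among the 255 is not independent of the list above.

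The genes most like each member in pattern were found by the distance between log2(RPKM + 1) profiles over the 3 libraries, each centred on its own mean, among 10132 genes. Predicted or clone-named genes, small RNAs, pseudogene symbols and the members were left out first, so a nearer gene among them is not listed. For Cxcl10 the nearest were Trim25 (distance 0.21), Ifit3 (0.23), Lgals3bp (0.24), Moxd1, Serpinb9b and Rtp4. Lgals3bp, a secreted galectin-binding glycoprotein, read 167, 96.8 and 39.8 RPKM. For Ccl5 the nearest gene was Spp1, encoding osteopontin, at a distance of 1.13 (19.2, 2.37 and 1.5 RPKM), followed by Ifit1 (1.18), Isg15 (1.41), Abcc2, Hspb1 and Rab29. None of the 10132 genes came nearer to Ccl5 than 1.13, and all 6 differed from F0 by less than Ccl5 did. For Ackr3 they were Mrps6 (0.03), Gfpt2 (0.07), Dnajc22, Cav1, Sh3bgr and Slc25a34. Mrps6, a mitochondrial ribosomal protein, read 64.6, 30.4 and 34.8 RPKM, a far higher level than that of Ackr3. In plain RPKM the F0 level of Ackr3 was 8.72-fold that of F1, a difference that the added 1 shrinks. Its plain ratios are therefore less like those of Mrps6 than the distance shows. The F1 and F10 values of Ackr3 also lie at or under the floor of 3 fragments. With 3 libraries a shared pattern is a description only.

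Of the 10 nearest annotated genes, 5 on each side, 3 had values for Ccl5, 7 for Cxcl10 and none for Ackr3. Next to Ccl5, Taf15 read 93.4, 156 and 98.1 RPKM, and the CC chemokine Ccl6 read at most 0.112. Cxcl10 lies within Art3, which is on the opposite strand and read 1.07, 0.718 and 0.482 RPKM. Art3 had the order of Cxcl10 at a much lower level, and whether counting used the strand is not given in the sources used here, so reads of the 2 genes may not be fully told apart. Nup54, on the other side, read 14.8, 16 and 12 RPKM, Scarb2 20.2, 17.6 and 15.5, and Sdad1 9.06, 11.9 and 11.9. Naaa, a lysosomal amidase, read 3.16, 1.32 and 1.56. Cxcl9 and Cxcl11, described above, are also neighbours of Cxcl10. Ccl5 lies within the long non-coding RNA gene Gm32650, not analysed here.

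The melanocyte label was matched by its markers: all 10 had values, from 37.9 RPKM for Mc1r in F0 to 3030 for Tyrp1 in F10. Leukocytes are the main source of Ccl5 in tissue, and their 19 listed markers summed to 3.47, 3.55 and 3.85 RPKM. Of these, 6 had values. The pan-leukocyte marker Ptprc was listed at 0 in F0 and F10 and read 0.0308 in F1, and Cd68 (2.09, 2.06 and 1.21) and Lyz2 (1.23, 1.37 and 1.78) were the only ones past 1 RPKM. Fibroblast markers summed to 5.48, 4.86 and 13.4 RPKM and so were highest in F10, with Pdgfrb at 0.758, 0.148 and 3.34 and Dcn at 0.396, 0.445 and 2.62, Postn at 2.94, 2.62 and 4.2 and Col1a2 at 0.943, 0.811 and 1.39. Their part in the levels of the 3 genes was not tested. Endothelial markers, which can carry Ackr3, summed to 66.5, 58.6 and 60.4 RPKM, nearly all of it Eng (65.9, 58.2 and 59.3), while Cdh5, which defines endothelium, was listed at 0 in F0 and F1. The libraries were of like depth, with 5.44, 6.32 and 5.39 fragments per RPKM and kilobase.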

How the data were processed

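RNA was sequenced from 1 library each of B16 F0, F1 and F10. Per the labels' protocols, polyadenylated RNA went into a stranded mRNA kit. Tools named in the submitters' processing notes are TopHat, Cufflinks, Bowtie2 and bcl2fastq, with build mm10. Their versions and settings and the gene annotation were not given in the sources used here. Per the file headers, the authors deposited RPKM per gene, and their score columns were not used. Of 14313 rows, 20 bore a spreadsheet date in place of a symbol (0.174% of RPKM) and were left out.

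Genes with at least 1 RPKM in 1 library were compared as differences of log2(RPKM + 1), and 2-fold means a difference of 1. With 1 library per group there is no test. The worth of 1 fragment was read from the steps of low values in 1136 genes with a single transcript of at least 800 bases (GENCODE M21, GRCm38, which is mm10), less 40 bases of length. Between 76.9% and 80.7% of values near the step lay within 5% of it. Fragments of other genes used the median length of protein-coding transcripts (94.2% of genes), and the 3 members used the transcript with most exons, ended at the RefSeq gene ends. Intervals are 95% and, like the floor of 3 fragments, cover counting error only.

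The members, lists and motifs were chosen with earlier results of these data known. The genes named were the members, chemokine ligands and receptors and cell type markers past 1 RPKM, the 6 genes nearest to each member in pattern, neighbours past 1 RPKM among 5 on each side, and, from every other list, the 4 compared genes that differed most between F10 and F0, plus each gene 2-fold apart in a pair. Melanocyte markers are given by their range, and 1 gene is not reported here. Other genes were named after their values were seen, as known partners of the members. Alternatives were pseudocounts of 0.5 and 0.1, no filter, rescaling to the same sum of RPKM (TPM scale) and median ratios. Python 3.11.15, SciPy 1.17.1 and pandas 2.3.3 were used.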

Additional observations from a re-analysis of the deposited data

How the results depend on the processing

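No paired analysis was possible because each subline has 1 library and the labels give no replicate numbers. The pseudocounts of 0.5 and 0.1 cannot change the direction of a difference, only its size. The factors for rescaling to the same sum and for median ratio scaling were too close to 1 to turn the differences of Ccl5, Cxcl10 and Ackr3. That these differences kept their direction is therefore no check on it. Whether Ackr3 differs between F1 and F10 stays undetectable under each setting. With a pseudocount of 0.5 and likewise of 0.1, 2 chemokine ligands were at least 2-fold lower in F10 than in F1, as Cxcl10 passed 2-fold, and 1 receptor, Ackr3, was at least 2-fold lower in F10 than in F0. At 0.1 the ligands at least 2-fold lower in F10 than in F0 numbered 3, against 2 in the main setting. Counts over all genes grew with a smaller pseudocount, which by construction weighs low genes more. At 0.5 they were 213 lower in F1 than in F0 (109 as reported) and 343 higher in F10 than in F1 (221). At 0.1 they were 314 lower and 229 higher for F1 against F0, 308 lower and 330 higher for F10 against F0, and 354 lower and 473 higher for F10 against F1. Both rescalings left each count within 1.5 times. Leaving out the filter could not change a count, since genes under 1 RPKM in each library cannot differ by 1 on the log2(RPKM + 1) scale. Depth limits Ackr3 most, at about 2 and 3 fragments in F1 and F10, and Ccl5 in F10 rests on about 5.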

Other observations

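Genes that trim or hold chemokines at the cell surface were looked at as well. Dpp4, which clips the ends of Ccl5 and Cxcl10, was listed at 0 in F0 and read at most 0.0516 RPKM in the other libraries. Of 9 compared proteases of that list 1 was at least 2-fold lower in F10 than in F0, where 1.61% of all compared genes were. It was the cathepsin Ctsb, at 240, 166 and 90.9 RPKM. Anpep, an aminopeptidase, read 2.45, 4.54 and 1.1 RPKM, the gelatinase Mmp2 2.33, 0.527 and 1.12, and Furin 6.41, 5.95 and 9.04. Mmp2 was the 1 member at least 2-fold lower in F1 than in F0, where 1.02% of all compared genes were. None of 6 compared proteoglycan cores, to whose heparan sulphate chains chemokines bind, was 2-fold apart in a pair on the log2(RPKM + 1) scale. Over all compared genes the shares lower or higher ran from 0.972% to 2.07% across the pairs, so none in 6 is near those shares. Sdc3 read 2.21, 2.77 and 4.78 RPKM, and in plain RPKM F10 was 2.16-fold above F0, with an interval that includes 1 (0.898 to 6.63). Sdc4 read 19.6, 11.6 and 11.2, Gpc1 23.4, 26.2 and 32.2, and Gpc6 1.35, 1.38 and 1.93. Hypoxia genes had Epas1 at least 2-fold higher in F10 than in F0 (1.46, 1.32 and 4.01 RPKM) and Adm at least 2-fold higher in F1. Over all compared genes 1.54% were higher in F10 and 0.972% in F1. The other 8 of 10 hypoxia genes were not 2-fold apart in either comparison with F0. Among them Car9 read 2.19, 1.72 and 4.04 RPKM, Vegfa 13.5, 25 and 20.2, and Hif1a 41, 46.1 and 55.8.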
